A study of Mus musculus with 12 samples.

Results

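The cytosolic ribosomal protein genes encode the protein parts of the ribosome that works outside the mitochondria. They were taken here as every non-control probe of the array whose gene name is Rps or Rpl followed by a number, or is Rplp0, Rplp1, Rplp2 or Rpsa, leaving out the S6 kinase names. This gave 82 of the 27827 gene names on the array, read by 141 of its 41174 probes. Each gene was read through its brightest probe by mean over the 12 arrays. Of the 82 genes, 32 encode proteins of the small subunit and 50 of the large subunit, counting the paralogs Rpl3l, Rpl7l1, Rpl22l1, Rpl39l and Rps27l. A level is the log2 signal minus the 75th percentile of the same array, so 0 is the array's own 75th percentile. Levels of different probes are not set against each other, since probes differ in how well they bind.

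Hypothalamic RNA came from male mice of ICR, an outbred strain, that were 3 weeks old at the start. Control mice had water in both drinking tubes throughout, and alcohol mice had water in one tube and a 5% or 10% alcohol solution in the other. Drinking lasted to day 57 by the series design, while the treatment protocol gives day 51 for the sacrifice. Each of the 4 labeled groups had 3 pools: water, low drinkers, early high drinkers and late high drinkers. The sample titles call the last groups early and late alcohol drinkers, and the sample descriptions add that their intake was high. The water pools held RNA of 9 mice in all, 3 in each, and the 9 alcohol pools held RNA of 19 mice, 1 to 3 in each. The study lists the solution drunk by the mice of each alcohol pool, but under names that the labels do not tie to single arrays. Its pools of less consumption held 3 mice each and those of more consumption 1 or 2. By number and intake these correspond to the low and the high pools, so intake and pool size cannot be told apart there. All groups shared strain, sex and age. The 12 Agilent 1-color arrays lay on 3 slides. Slide 1 held the 3 water pools and low pool 1, slide 2 held low pools 2 and 3 with early high pools 1 and 2, and slide 3 held early high pool 3 with the 3 late high pools. No water pool was therefore on a slide with a late high pool, and slide 1 was scanned on another day than slides 2 and 3.

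A ribosome joins a small subunit, which reads the mRNA, to a large subunit, which forms the peptide bond. Each subunit is an rRNA core dressed with proteins, most of which are needed in equal number, and the genes for them are among the most evenly expressed of the cell. Many of these mRNAs begin with a C followed by a run of pyrimidines, the 5′ terminal oligopyrimidine tract, through which mTOR and Larp1 control their translation. Several members are used as reference genes or as handles to purify ribosomes from chosen neurons.

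Probe sequences are shown for some of the members named below for a difference, because the share of G and C in a probe moved with the result. G and C are in capitals. The first 6 are whole probes of 60 bases, and the last 2 are the 30 bases at the 5′ end of a probe.
Rpl11: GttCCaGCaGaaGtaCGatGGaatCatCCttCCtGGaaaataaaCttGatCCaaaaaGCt
Rpl23: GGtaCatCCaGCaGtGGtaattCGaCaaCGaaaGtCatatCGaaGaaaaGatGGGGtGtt
Rpl22l1: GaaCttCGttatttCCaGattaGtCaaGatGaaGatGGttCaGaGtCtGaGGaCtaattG
Rps12: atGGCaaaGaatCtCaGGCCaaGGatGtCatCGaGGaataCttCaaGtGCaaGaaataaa
Rps6: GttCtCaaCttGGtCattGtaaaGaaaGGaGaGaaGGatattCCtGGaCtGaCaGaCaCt
Rpl18: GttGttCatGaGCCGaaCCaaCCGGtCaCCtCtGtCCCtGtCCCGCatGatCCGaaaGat
Rpl31: GGGtGttGGaaattaatCtGaGaatCtCtG
Rpl21: GGCaGCCCtCGGGCCttGtaaGaGCGCGCa

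By the array files, in mm9, the Rpl11 probe lay at chr4:135605885-135606207 on the minus strand and held 40.0% G and C. The 60 bases spanned 323 bases of the genome, so it crossed a splice junction. The Rpl23 probe lay at chr11:97639635-97642649, over 3015 bases. The Rpl22l1 probe at chr3:28706197-28706256 and the Rps12 probe at chr10:23505016-23505075 were uninterrupted. The Rps6 probe lay at chr4:86501886-86502077 and the Rpl18 probe, with 33 G or C among 60 bases, at chr7:52974958-52975300, and both crossed a junction. The Rpl31 probe lay at chr1:39428271-39428330. The Rpl21 probe at chr5:147644677-147644736 held 45 G or C among 60 bases, the most of any member, and the gene's other probe lay at chr5:147648267-147648326. Of the 82 probes, 28 covered more than their own length in the genome. The probes of Rpl10 and Rpl12 were placed on chromosomes 8 and 10, while RefSeq lists the genes on X and 2, so what they read is uncertain. Of the 82 probes, 77 carried an accession that matched RefSeq, and those of Rpl10, Rpl21, Rpl30 and Rps19 were among the others. Ribosomal protein genes have many processed copies in the genome, and a 60-base probe cannot always tell them from the gene.

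For 80 of 82 members the spot was well above background on all 12 arrays. Rpl39l, the testis paralog of Rpl39, was well above background on 0 of 12 arrays and was not tested, and Rpl3l, the muscle paralog of Rpl3, was well above background on 11 arrays. The hypothalamus label was checked through 15 marker genes, of which 13 were well above background on all 12 arrays, among them Hcrt, Pmch, Avp and Oxt, while Otp was on 0. Over the whole series, an array had 67.0% to 79.3% of its spots well above background, with 0 saturated. The array of low pool 2 stood apart, with a lower quartile of signal of 63.2 against 22.3 to 34.0 on the other 11 arrays. Marker levels were summed per array as log2. The sum of 5 pituitary markers ran from -0.13 to 3.63, lowest in early high pools, and that of 3 blood markers lay from 6.22 to 6.67 in late high pools against 6.91 to 7.21 in water pools. The sum of 7 oligodendrocyte markers lay from 7.80 to 8.04 in late high pools and from 7.67 to 7.82 in water pools. The sum of 5 choroid plexus markers lay from 1.14 to 1.32 in late high pools, below the 1.33 to 1.69 of water pools, with 0 of 5 differences above 0. The sum of 6 thalamus markers lay from 4.27 to 4.91 in late high pools, from 4.08 to 4.30 in water pools and from 3.87 to 4.62 in early high pools, with median differences of late high pools of 0.22 from water and 0.25 from early high pools. The sum of 7 microglia markers lay from 3.80 to 4.01 in late high and from 3.80 to 3.94 in water pools. The part of these in the results below was not tested. In this tissue, fewer cells of a type and less RNA per cell cannot be told apart.

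The ribosomal protein genes held a nearly level signal over the 12 arrays. The SD of a member over the arrays had a median of 0.09 on the log2 scale, against 0.14 for the 29521 probes measured on all 12 arrays. These medians are not a like comparison, since members were read through their brightest probes. Of these, 79 lay above the 75th percentile on all 12 arrays, while the 29521 probes include dim ones. The SD of other probes of like brightness was not taken. Each member's deviation from its own mean was taken, and the median over the 81 members was -0.01, -0.01 and -0.09 on the water arrays. It was -0.04, 0.01 and 0.07 on the low, 0.01, 0.03 and -0.04 on the early high, and 0.02, 0.04 and 0.01 on the late high arrays. The late high arrays lay above the 3 water arrays by little, and the low and early high arrays overlapped with water. The SD between arrays of a group was 0.04. Water array 3 was the lowest and low array 3 the highest. The 1876 probes of the array in the range of brightness that most members share had their lowest and highest medians on the same arrays, at -0.05 and 0.03. After quantile normalization, which gives every array the same distribution, these medians lay between -0.02 and 0.02.

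**Figure D1:**
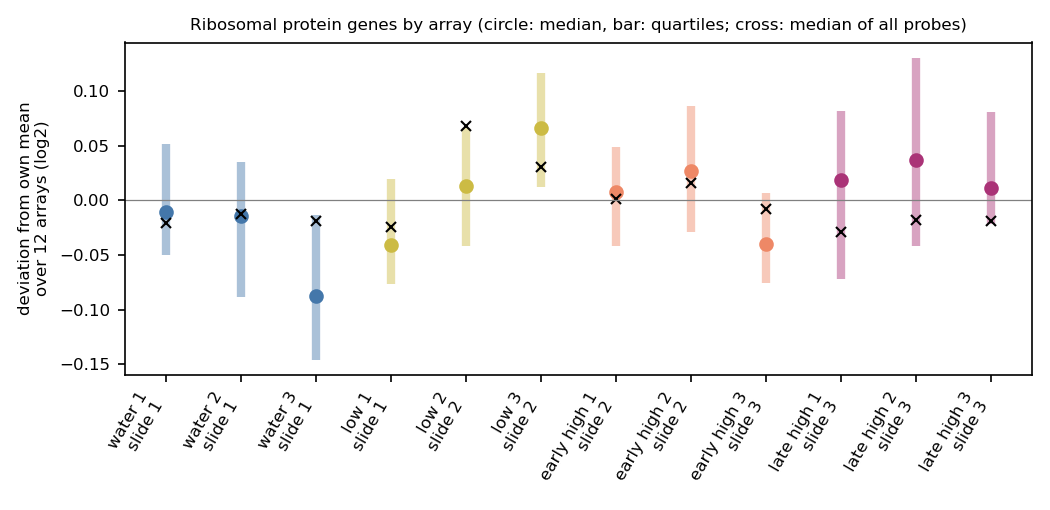
Deviation of the 81 ribosomal protein genes from their own mean over the 12 arrays (y axis, log2), by array and slide (x axis), with the median as a circle, the quartiles as a bar and the median of 29521 probes as a cross. The medians lie between -0.09 (water 3) and 0.07 (low 3).

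The study asks what chronic alcohol from adolescence to adulthood does to hypothalamic gene expression, and the first comparison sets the 9 alcohol arrays against the 3 water arrays. No member passed an adjusted p of 0.05 in limma with Benjamini-Hochberg adjustment, and the smallest adjusted p of a member was 0.819. No probe of the array did, which is 0% of the 32376 tested. At an unadjusted p under 0.05, 9 of 81 members (11.1%) were higher with alcohol, beside 3.85% of all probes, and 3 (3.70%) were lower, beside 1.68%. The 9 were Rpl11, Rps12, Rpl23, Rpl9, Rps7, Rpl34, Rps24, Rps2 and Rpl13, and the 3 were Rpl21, Rps6 and Rpl31. The median log2 difference of the members was 0.05 and that of all probes 0.03. Under quantile normalization 2 members were higher and 3 lower, with a median of -0.0018, beside 996 and 987 of 32376 probes. With no scaling the members were again 2 and 3, beside 1326 and 309 probes. With water array 3 left out, 3 members were higher and 1 lower, beside 2.52% and 1.15% of all probes. With 1 array left out, Rpl21 kept the threshold in 6 of 12 fits and Rpl31 and Rpl34 in 7 each, while Rps7 lost it without water array 2 or 3 and Rps12 without water array 3. By subunit, the split was 4 higher and 1 lower among 32 small subunit genes, and 5 higher and 2 lower among 49 large subunit genes.

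Rpl11 forms a complex with Rpl5 and 5S rRNA that binds Mdm2 and so guards p53. Its levels were 6.13, 6.06 and 6.01 on the water arrays. They were 6.18, 6.22 and 6.36 on the low, 6.37, 6.41 and 6.23 on the early high, and 6.33, 6.42 and 6.37 on the late high arrays. All 9 alcohol arrays lay above all 3 water arrays. The log2 difference was 0.25 ± 0.06 (SE), a ratio of 119%, with an unadjusted limma p of 0.00136. The exact 2-sided permutation p was 0.00455, the smallest that 220 ways of choosing 3 of 12 arrays can give. This test, also used below, takes the 12 arrays as exchangeable, though the 3 water arrays shared slide 1 with 1 alcohol array. Rpl11 had the largest rise of the 81 members. With slide as a fixed block its unadjusted limma p was no longer under 0.05. The gene's other probe, with a mean level of -2.16 and no accession matched, gave a difference of -0.06.

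Rpl23, another large subunit protein that binds Mdm2, was at 5.67, 5.65 and 5.60 on the water arrays. It was at 5.73, 5.73 and 5.75 on the low, 5.80, 5.92 and 5.81 on the early high, and 5.99, 5.98 and 5.86 on the late high arrays. The alcohol arrays again all lay above the water arrays, and the difference was 0.20 ± 0.07 (SE), with a permutation p of 0.00909 (exact). The other probe gave 0.07. Rpl9, a large subunit protein, had water levels of 6.18 to 6.24 and alcohol levels of 6.28 to 6.49 (median 6.40), with no overlap and a difference of 0.18 ± 0.05 (SE). Rps7, one of the small subunit genes mutated in Diamond-Blackfan anemia, was at 5.31 to 5.45 on the water and 5.46 to 5.70 on the alcohol arrays (median 5.49). Rpl13, a large subunit gene, was at 5.94 to 5.98 on the water and 5.99 to 6.23 on the alcohol arrays, also with no overlap. Members without overlap and higher were 5 of 81 (6.17%), beside 0.982% of the 29521 probes. No member lay wholly below the water arrays, beside 0.325% of those probes.

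Rps6 is the small subunit protein that S6 kinase phosphorylates downstream of mTOR, the usual sign of an active pathway in neurons. Its mRNA level was 4.14, 4.05 and 4.06 on the water arrays. It was 3.96, 3.80 and 4.09 on the low, 3.90, 3.81 and 3.73 on the early high, and 3.85, 3.85 and 3.85 on the late high arrays. All arrays of the high drinkers lay below the water arrays, while low array 3 lay among them. The difference was -0.21 ± 0.07 (SE), a ratio of 86.4%, with an exact permutation p of 0.0136. The gene's other probe, dim at a mean of -4.53 and with no accession matched, gave 0.07 for the same comparison. The arrays read mRNA, so phosphorylation of the protein was not measured.

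**Figure D2:**
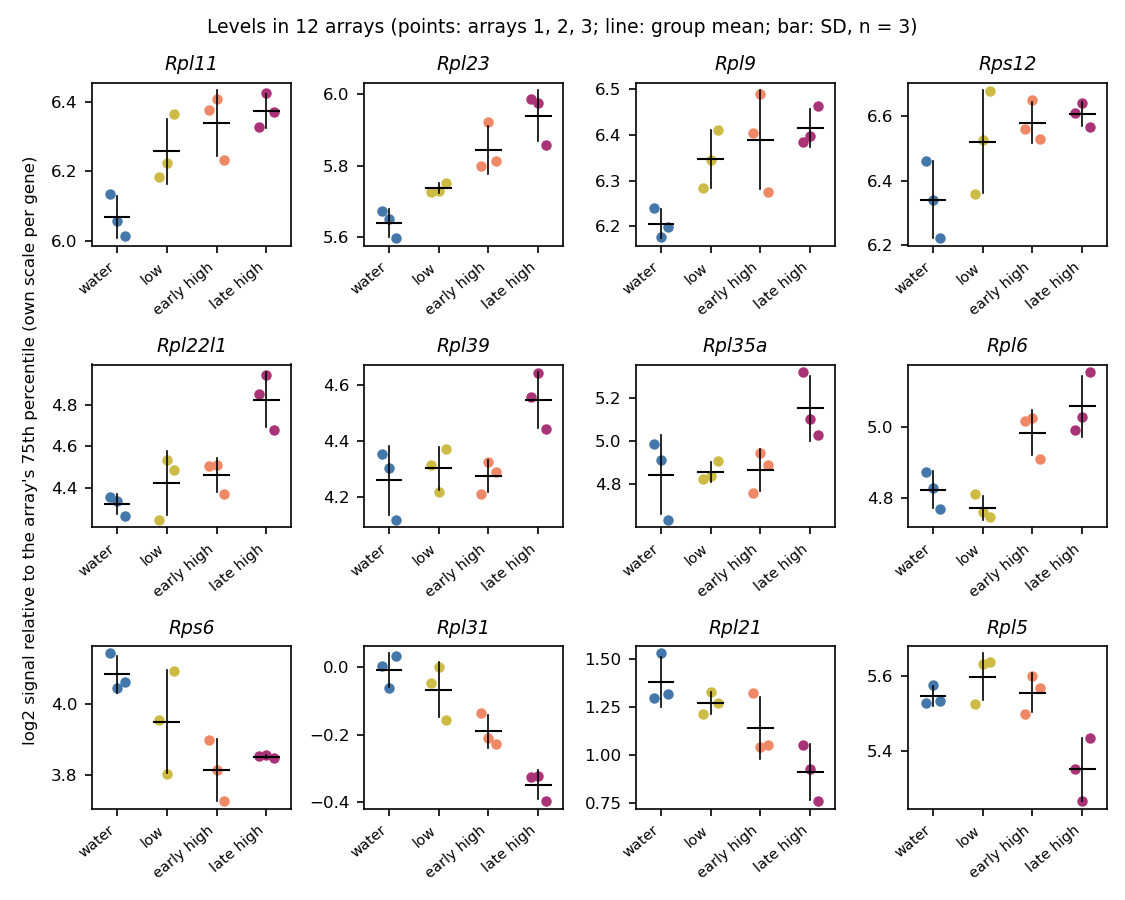
Level of 12 members (y axis, log2 signal relative to the array's 75th percentile, own scale per gene) in the water, low, early high and late high arrays (x axis), with 1 point per array, the group mean as a line and the SD as a bar (n = 3). Rpl11 and Rpl23 of the alcohol arrays all lie above the water arrays, and Rpl22l1 is at 4.68 to 4.94 in the late high arrays against 4.26 to 4.36 in water.

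Low drinkers had the fewest members past an unadjusted p of 0.05 against water. Here 3 of 81 members (3.70%) were higher, beside 8.33% of all probes, and none was lower, beside 0.749%. Among them were Rpl11 and Rpl38, the latter known for its part in the translation of Hox mRNAs, and both no longer met the threshold without water array 2 or 3 or low array 3. The median difference was 0.04 for members and 0.04 for all probes. Over the array, 69 probes (0.218%) passed an adjusted p of 0.05 here, none of them a member. Under quantile normalization 1 member was higher in low drinkers and none lower, beside 4.7% and 4.89% of all probes. With no scaling no member was higher or lower, beside 6.88% and 1.04%. In early high drinkers 7 members (8.64%) were higher, beside 2.8%, and 3 (3.70%) were lower, beside 1.9%, with a median of 0.02 for members and 0.02 for all probes. Under quantile normalization this split was 3 and 2, beside 771 and 747 of 31622 probes, and with no scaling 1 and 2, beside 709 and 334. No probe (0%) passed the adjusted threshold. The lower members were again Rps6 at -0.27 ± 0.08 (SE), Rpl21 at -0.24 ± 0.10 (SE) and Rpl31 at -0.18 ± 0.06 (SE). With 1 array left out, Rpl21 kept an unadjusted p under 0.05 in 4 of 12 fits and was at -0.17 without water array 2, while Rps6 and Rpl31 kept it in all 12. Among the higher members, Rps7 kept it in 6 of 12 fits and Rpl6 in 8. Without water array 2, 3 members were higher and 2 lower, without water array 3, 4 and 2, and without early high array 2, 3 and 3. Of all probes these fits had 2.34% higher and 1.63% lower, 2.22% and 1.41%, and 1.55% and 1.59%. These comparisons share their water arrays, so their members are not independent of each other.

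Late high drinkers had the most members past that threshold against water, and the difference between the alcohol groups in this count was not tested. Of 81 members, 22 (27.2%) were higher at an unadjusted p under 0.05, beside 6.97% of all probes, and 8 (9.88%) were lower, beside 8.94%. No member passed an adjusted p of 0.05 in limma and no probe did (0%). The smallest adjusted p of a member was 0.0910, that of Rpl31. The median difference was 0.07 for members and 0.00 for all probes. The share of members that were lower was near that of all probes. The split by scaling was wide: under quantile normalization 13 members were higher and 11 lower, with a median of -0.0019, beside 2367 and 2693 of 31622 probes, and with no scaling 34 were higher and 1 lower. Without scaling the median of all probes itself moved to 0.13, with 4570 of 31622 probes higher and 862 lower. With late high array 2 left out 14 were higher and 4 lower, beside 4.79% and 6.47% of all probes. With water array 3 left out these were 11 and 8, beside 4.88% and 6.5%. Members whose 3 late high arrays all lay above the 3 water arrays were 26 of 81 (32.1%), beside 12.5% of probes, and those wholly below were 7 (8.64%), beside 13.5%.

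**Figure D3:**
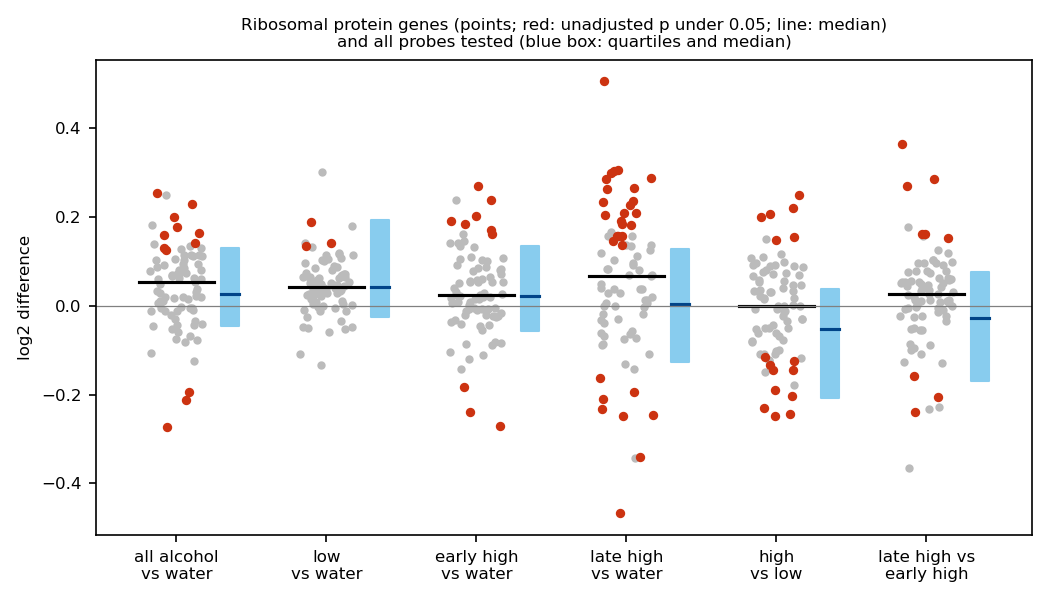
Log2 difference (y axis) of 81 ribosomal protein genes in 6 comparisons (x axis), 1 point per gene, red at an unadjusted limma p under 0.05, with the median of the members as a line and the quartiles and median of all tested probes as a blue box. The late high drinkers against water hold 30 red points, 22 above and 8 below 0.

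Rpl22l1 had the largest difference of the members in late high drinkers. It is a paralog of Rpl22 that can take its place in the ribosome and binds some pre-mRNAs. Its levels were 4.36, 4.34 and 4.26 on the water arrays. They were 4.24, 4.53 and 4.49 on the low, 4.51, 4.51 and 4.37 on the early high, and 4.85, 4.94 and 4.68 on the late high arrays. The late high arrays lay above all the others. The difference from water was 0.51 ± 0.09 (SE), a ratio of 142%, with an adjusted limma p of 0.0974 (0.0302 with late high array 3 left out), and that from early high drinkers 0.36 ± 0.09 (SE). The other probe of the gene, dim at a mean of -4.64 and with no accession matched, gave 0.33 against water and -0.31 against early high. Rpl22 itself, the protein tagged in RiboTag mice, had one of the lowest SDs of the members, 0.05, and a late high difference of -0.03 (95% interval -0.16 to 0.10). The other Rpl22 probe, with a matched accession and well above background on all 12 arrays, gave 0.18, outside that interval.

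Other higher members of the late high drinkers were Rpl35a (0.31 ± 0.11 SE), a Diamond-Blackfan gene, Rpl11 (0.31 ± 0.07), Rpl23 (0.30 ± 0.06), Rpl30 (0.29 ± 0.09) and Rpl39 (0.29 ± 0.08). With water array 3 left out Rpl35a was at 0.20, and there and without late high array 1 it no longer had an unadjusted p under 0.05. Rpl39 is a small protein that lines the peptide exit tunnel. Its levels were 4.35, 4.30 and 4.12 on the water arrays and 4.56, 4.64 and 4.44 on the late high arrays, with the low arrays at 4.22 to 4.37 and the early high at 4.21 to 4.32. Rpl39 and Rpl35a were thus high in the late high arrays and overlapped with water in the other alcohol groups. Rpl6 was at 4.77 to 4.87 on the water and 4.75 to 4.81 on the low arrays. It was at 4.91 to 5.03 on the early high and 4.99 to 5.16 on the late high arrays, so the high drinkers lay above both other groups.

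Rps12, a small subunit protein, was at 6.46, 6.34 and 6.22 on the water arrays and at 6.61, 6.64 and 6.57 on the late high arrays, above all of them. The low arrays were at 6.36, 6.53 and 6.68 and the early high arrays at 6.56, 6.65 and 6.53. Low array 1, which shared the water slide, lay among the water arrays. Rpl30, which binds its own pre-mRNA, was at 4.62, 4.41 and 4.31 in water and at 4.79, 4.73 and 4.69 in late high drinkers. Both of its probes were higher, the other one by 0.50. Rps4x, an X-linked small subunit gene, differed by 0.18 ± 0.07 (SE) and Rps20, a small subunit gene, by 0.16 ± 0.06 (SE). Rps4x had no overlap between the late high and water arrays, while Rps20 did. The threshold was no longer met with water array 3 left out for Rps12, nor with water array 2 or 3 or late high array 1 or 2 left out for Rps20 and Rps27a, nor with those or late high array 3 left out for Rps4x.

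Among the lower members, Rpl31 is a large subunit protein near the mouth of the exit tunnel. Its levels were 0.01, -0.06 and 0.03 on the water, -0.04, 0.00 and -0.16 on the low, -0.13, -0.21 and -0.23 on the early high, and -0.32, -0.32 and -0.40 on the late high arrays. The late high arrays lay below every other array, at -0.34 ± 0.06 (SE) against water, a ratio of 79.0%. Its other probe gave -0.37, so both probes of Rpl31 were lower. Rpl21, a large subunit protein, was at 1.30, 1.53 and 1.32 on the water, 1.22, 1.33 and 1.27 on the low, 1.33, 1.04 and 1.05 on the early high, and 1.05, 0.93 and 0.76 on the late high arrays. The difference was -0.47 ± 0.10 (SE), a ratio of 72.3%, but the probe carried no accession that matched RefSeq. The gene's other probe, which did match, gave 0.12. Rpl5, the partner of Rpl11 on 5S rRNA, differed by -0.19 ± 0.06 (SE) in late high drinkers, opposite to Rpl11, and by -0.20 ± 0.06 (SE) from early high drinkers. Rps9, which lines the path of the mRNA into the small subunit, differed by -0.25 ± 0.09 (SE) and Rpl18 by -0.25 ± 0.08 (SE). Rpsa, also known as the laminin receptor precursor, differed by -0.16 ± 0.06 (SE), while its other probe gave 0.30. The threshold was no longer met without late high array 1 or 2 for Rpl18, Rpl29, Rps9 and Rpsa, without water array 2 for Rpl18, Rpl29 and Rpsa, without water array 1 for Rps9 or without water array 3 for Rpsa.

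**Figure D4:**
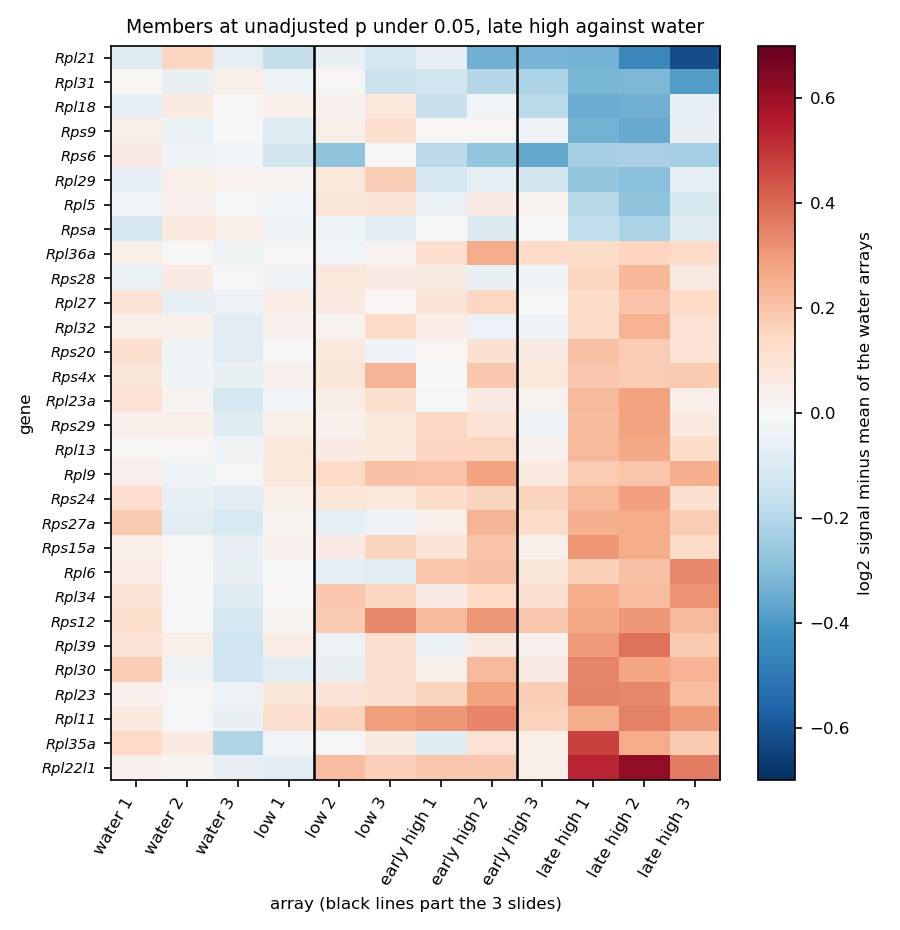
Level of the 30 members at an unadjusted p under 0.05 in late high drinkers, minus the mean of the water arrays (color, log2), by gene (y axis) and array (x axis), with black lines between slides. Rpl22l1 is the row with the largest positive and Rpl21 the row with the largest negative late high difference (0.51 and -0.47).

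More alcohol was set against less by comparing the 6 high drinker arrays with the 3 low drinker arrays. Here 6 members (7.41%) were higher, beside 3.4% of all probes, and 10 (12.3%) were lower, beside 11.3%, with a median difference of -0.00075 for members and -0.05 for all probes. Under quantile normalization 7 members were higher and 11 lower, beside 8.88% of all probes higher and 6.24% lower, so the order of the shares of all probes turned. Without scaling 27 members were higher and none lower, but the median of all probes moved too, from -0.05 to 0.08, with 3359 of 31622 probes higher and 1427 lower. Over the array 7 probes (0.0221%) passed an adjusted p of 0.05, none a member. Rpl6 was highest at 0.25 ± 0.05 (SE), with an adjusted p of 0.118 in limma (0.0385 with low array 1 left out), followed by Rpl22l1 at 0.22 (0.13 with low array 1 left out, where its unadjusted p was no longer under 0.05), Rps27a, Rpl30, Rpl23 and Rpl36a. Rps27a encodes ubiquitin fused to a small subunit protein. The lowest were Rpl29 at -0.25 ± 0.06 (SE), Rpl21, Rpl18, Rpl31 and Rps3a. Rpl29 has 3 other probes, all with a matched accession and well above background on all 12 arrays, which gave -0.03, 0.03 and 0.07 here, and the mean of its probes, -0.04, did not meet the threshold. The other probe of Rps3a gave 0.01, that of Rpl6 0.04, and those of Rpl36a -0.05 and -0.02. That of Rpl23 gave -0.05, of Rpl31 -0.01, of Rpl21 -0.07, of Rpl30 0.28 and of Rpl22l1, which is dim, -0.39. Without low array 2 or 3 Rpl21 and Rps3a no longer met the threshold, nor did Rps27a without low array 2, or Rpl30 without low array 1 or 2, early high array 2 or late high array 1. Between late and early high drinkers 6 members (7.41%) were higher, beside 4.37%, and 3 (3.70%) were lower, beside 8.04%, with 0% of probes past the adjusted threshold. Under quantile normalization this split was 8 and 3, beside 5.29% of all probes higher and 6.28% lower. Without scaling it was 25 and 0, with the median of all probes moved from -0.03 to 0.13 and 4395 of 31622 probes higher and 826 lower. The higher members were Rpl22l1, Rpl35a, Rpl39, Rpl32, Rpl34 and Rps28, and the lower ones Rps9, Rpl5 and Rpl31. With 1 array left out, Rpl34 (0.16) kept an unadjusted p under 0.05 in 5 of 12 fits. Rpl35a (0.29) no longer met it without late high array 1 (0.20) or early high array 1 (0.23), and the mean of its probes was at -0.24. The threshold was also not met without late high array 2 for Rpl32 and Rps9, without early high array 2 or 3 for Rpl32, without late high array 1 for Rps9, or without early high array 1 or late high array 3 for Rpl31.

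Members that serve as reference genes had small differences with wide intervals. Rplp0, the base of the stalk that recruits elongation factors, differed between alcohol and water by 0.07 (95% interval -0.04 to 0.18), and Rplp2, its partner in the stalk, by 0.03 (-0.07 to 0.13). Rpl13a differed by 0.07 (-0.05 to 0.18), Rps18 by 0.04 (-0.10 to 0.17), Rpl32 by 0.07 (-0.06 to 0.21) and Rpl26, which binds p53 mRNA, by 0.05 (-0.08 to 0.18). In late high drinkers Rpl32 was higher by 0.16 ± 0.06 (SE) at an unadjusted limma p of 0.0326. It no longer met that threshold without water array 3 (0.12) or late high array 2 (0.12), nor under quantile normalization (0.07), normexp background correction (0.15), the replicate number as a block (0.16) or slide as a fixed or random block (0.14 and 0.16). Rpl10a, the protein tagged in TRAP mice, differed by 0.08 (-0.07 to 0.23). Rplp1, the third protein of the stalk, differed by 0.14 (-0.03 to 0.30), with early high array 2 highest at 6.99. Rps3, which also repairs DNA, differed by 0.10 (-0.02 to 0.21), and Rpl10, whose probe position is uncertain, by -0.04 (-0.20 to 0.11). Rpl38 differed by 0.09 in all alcohol arrays, and in low drinkers it was at 6.63, 6.63 and 6.64 against 6.57, 6.46 and 6.47 in water. Rpl3l, dim on every array, differed by 0.18 (-0.27 to 0.63). Rplp2 had the lowest SD of the members over the 12 arrays, 0.05, with levels from 6.79 to 6.94. Rpl14 had the highest, 0.34, with water levels of 1.09, 1.35 and 0.46, low levels of 1.39, 0.68 and 0.69, early high levels of 1.22, 0.60 and 1.15, and late high levels of 0.66, 0.65 and 0.56. Rpl28, Rpl35 and Rpl7 also had low SDs (0.05, 0.05 and 0.06), and their levels on the 12 arrays ran from 4.40 to 4.56, 5.22 to 5.40 and 5.62 to 5.81. The Rpl14 arrays spread widely within the water, low and early high groups. The other members fixed by role did not pass an unadjusted p of 0.05 with alcohol against water, such as Rps19 at -0.03 (-0.21 to 0.15), Rpl41 at 0.02 (-0.11 to 0.15) and Rps14 at -0.01 (-0.15 to 0.13).

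Groups and slides overlapped only in part, so differences were also taken within slides. On slide 1, low array 1 minus the 3 water arrays had a median of 0.00 over 82 members, with 41 above 0. On slide 2, early high minus low had a median of -0.03 over 81 members, with 31 above 0. On slide 3, late high minus early high array 3 had a median of 0.06 over 82 members, with 61 above 0. Within slide 3 Rpl22l1 was 0.46 higher in late high drinkers, while within slide 1 it was -0.07 in the low pool against water. Rpl11 was 0.12 higher in the low pool within slide 1, 0.10 higher in early high within slide 2 and 0.14 higher in late high within slide 3. Rpl31 was -0.04, -0.09 and -0.12 in the same 3 differences. Rpl39 was 0.05, -0.03 and 0.26, Rpl35a -0.02, -0.02 and 0.26, and Rpl5 -0.02, -0.08 and -0.22, so for all 3 the late high pools stood apart from early high array 3 on their own slide. Rps6 was -0.13, -0.09 and 0.13, so on slide 3 it had the opposite sign. With slide as a fixed block in the fit, 3 of the 30 late high members kept an unadjusted p under 0.05, namely Rpl6, Rpl11 and Rpl13, and 0 of the 12 alcohol members did. Across all probes 1.61% were higher and 6.16% lower in late high drinkers with this block, and 1.05% and 1.05% with alcohol against water. The late high differences with the block were 0.41 ± 0.15 (SE) for Rpl6, 0.36 ± 0.15 for Rpl11 and 0.33 ± 0.13 for Rpl13, at adjusted limma p of 0.597, 0.636 and 0.620. In that fit the late high and water pools are linked only through the low and early high pools that shared slides with them, and the SE of Rpl11 was 0.15 with the block and 0.07 without it.

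Base content and brightness of the probe moved with the differences in most comparisons. Across 81 members the Spearman correlation of the probe's share of G and C with the log2 difference of late high drinkers from water was -0.46, and across all 31622 probes it was -0.18. Genes share arrays and probes share bases, so this is a description without a test. The 30 members with under 45% G and C had a median late high difference of 0.16, and the 50 members at 45% to 55% a median of 0.01. For all probes the medians in these ranges were 0.03 and -0.02. The correlation over members was also -0.41 for early high against water and for all alcohol against water, and -0.46 for high against low drinkers, where it was 0.16, 0.08 and -0.31 across all probes. It was -0.26 for late against early high drinkers (-0.34 across all probes) and -0.04 for low drinkers against water (0.27 across all probes). The mean level of the probe, a measure of its brightness, had a Spearman correlation over members of 0.40 with the late high and with the all alcohol difference from water, of 0.37 with that of low and of 0.32 with that of early high drinkers. Across all probes these were 0.02, -0.31, -0.49 and -0.31. For high against low drinkers it was 0.29 and for late against early high drinkers 0.28, beside 0.48 and 0.34 across all probes. The part of base content and brightness in the result was not tested.

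**Figure D5:**
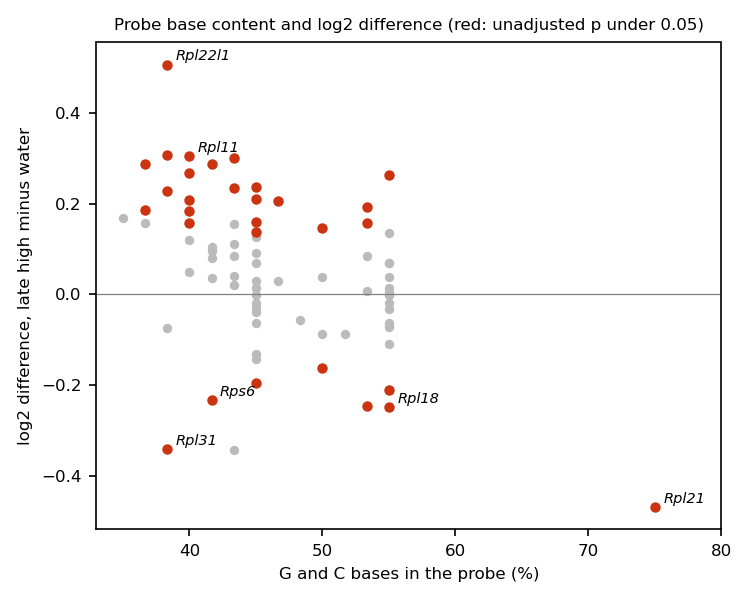
Share of G and C bases in the probe (x axis, %) against the log2 difference of late high drinkers from water (y axis) for 81 members, 1 point per gene, red at an unadjusted limma p under 0.05. Points with fewer G and C bases lie higher (Spearman -0.46), with Rpl31 and Rps6 low at 38.3% and 41.7% and Rpl21 alone at 75%.

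Several members had more than 1 probe, though some of the other probes were dim or had no accession matched to the gene. Of 43 members with several tested probes, all probes had the same sign in 21 for alcohol against water and in 19 for late high against water. Among the 21 late high members at an unadjusted p under 0.05 with several probes, 11 had the same sign in all, among them Rpl22l1, Rpl23, Rpl30, Rpl31, Rpl34, Rpl6 and Rps15a. The other 10, Rpl11, Rpl21, Rpl29, Rpl35a, Rps6, Rps12, Rps20, Rps24, Rps28 and Rpsa, had another probe of the opposite sign. For Rpl29 the 3 other probes gave -0.01, 0.05 and 0.20. For Rps12 the other probe, at a mean of -3.12 and with no accession matched, gave -0.66. That of Rpl35a, at a mean of -5.47 and with no accession matched, was well above background on 6 of 12 arrays and gave -0.66 too.

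The start of the gene was read from RefSeq for GRCm38.p6, where 61 members were listed with 73 starts. The motif searched was a C followed by at least 4 bases that are each C or T, on the sense strand alone. It stood exactly at the listed start in 13 of 73 member starts (17.8%), beside 2.51% of all 32851 starts, and began within 10 bases of it in 54.8%, beside 30.7%. Listed starts can be off by a few bases. The windows below show 15 bases before and 15 from the start on, with the run of C and T that holds the motif in capitals, for a pair of members with the motif at the start, one with it nearby and one without it.
Rps6: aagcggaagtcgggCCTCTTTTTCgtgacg
Rplp2: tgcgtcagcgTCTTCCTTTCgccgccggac
Rpl31: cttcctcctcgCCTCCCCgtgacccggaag
Rpl11: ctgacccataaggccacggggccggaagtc
In GRCm38.p6 they lie at chr4:86857353-86857382 on the minus strand for Rps6, chr7:141447636-141447665 on the plus strand for Rplp2, chr1:39367836-39367865 on the plus strand for Rpl31 and chr4:136053379-136053408 on the minus strand for Rpl11. The 37 tested members with the motif within 10 bases had a median late high difference of 0.08, and the 23 without it 0.04. Of the 37, 9 were higher and 4 lower at an unadjusted p under 0.05, and of the 23, 7 and 2, beside 6.97% of all probes higher and 8.94% lower. The shares of higher members thus ran against the order of the medians.

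The rest of the translation apparatus was read from fixed lists, in late high drinkers against water at an unadjusted p under 0.05, where 6.97% of all probes were higher and 8.94% lower with a median of 0.00. The lists are short, and their counts are to be read against these shares alone. Of 10 elongation and termination factors none was higher or lower, with a median of 0.01. Of 35 initiation factors 5 were higher and 2 lower, with Eif4a1, the mRNA helicase, at 0.24 ± 0.06 (SE) and Eif4g1, its scaffold, at -0.19 ± 0.06 (SE). Of 20 other mRNAs known for terminal oligopyrimidine tracts 3 were higher and none lower, with Naca, a chaperone of nascent chains, at 0.41 ± 0.08 (SE), Tpt1 at 0.29 ± 0.11 (SE) and Eif4b at 0.28 ± 0.10 (SE). Of 26 ribosome assembly genes 2 were higher and 3 lower. Of 18 genes of the mTOR and S6 kinase pathway 3 were higher and 3 lower, with Mycn, 4932417H02Rik and Larp1 among the higher (0.49, 0.28 and 0.22) and Akt1s1, Rps6ka1 and Rheb among the lower (-0.88, -0.38 and -0.18). Larp1 binds the terminal oligopyrimidine tract, Akt1s1 restrains mTOR and Rheb activates it. Of 75 mitochondrial ribosomal protein genes 6 were higher and 4 lower, near the shares of all probes, with a median of 0.04. No member of these lists passed an adjusted p of 0.05.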

How the data were processed

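Total RNA was labeled with Cy3 and hybridized to 12 Agilent whole mouse genome 4 × 44 K arrays. The deposited scanner files give each spot's intensity, which the authors obtained from Agilent Feature Extraction after background subtraction (version 10.5.1.1 by the file headers, while the study's methods name an earlier one), linear and not scaled across arrays. Their value table held the same intensities. Probe positions are those of mm9.

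For each array the log2 intensities were shifted so that the 75th percentile of its 43379 non-control spots was 0. Spots marked as outliers, or under a signal to noise ratio of 2, counted as missing, and repeated spots of a probe were averaged. A probe entered alcohol against water with 2 or more water values of 3 and 5 or more alcohol values of 9 (32376 probes), and the 4 groups at least 2 of 3 in each (31622 probes). Both fits used limma 3.58.1 in R 4.3.3 (lmFit, eBayes, Benjamini-Hochberg over all probes tested), and single genes an exact permutation test over 220 choices of arrays. Intervals are those of the fit. Steps were tested on simulated data.

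Members and lists were chosen with earlier results of these data known. The genes named were those fixed by role, up to 5 largest rises and falls per comparison at an unadjusted p under 0.05, and the 5 highest and lowest SDs over arrays, with a few others of a count named after their values were seen. The number of arrays limits the precision, and since the samples are pools of mice, p-values measure the spread between pools. Sequences of gene starts are from RefSeq. Figures were drawn with matplotlib 3.10.9. Alternatives covered scaling, background correction, the authors' table, filters, slide and replicate number as blocks, the choice of probe, each array left out and the methods' t-test. Results that need certain genes are not reported here.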

Additional observations from a re-analysis of the deposited data

Results flagged for a closer look

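The 9 alcohol arrays were searched for single arrays far from the rest, in 44 named members and in the median shift of the members, 45 measures in all. Chance marks about 1 in 20 measures, which is 2.25 here, and 3 were marked. Rpl3l stood high on the array of low pool 2, at -4.20 with the next array at -4.86, a gap of 0.531 of the whole range. That array also had the highest lower quartile of signal, 63.2, and the Rpl3l spot is dim. Rps12 stood low on the array of low pool 1, at 6.36 with the next array at 6.53 (0.521 of the range), and so did Rps3, the small subunit protein at the mRNA entry, at 5.49 with the next at 5.61 (0.596 of the range). The array of low pool 1 was the only alcohol array on slide 1, with the water arrays, whose Rps12 levels were 6.22 to 6.46. The part of slide in this was not tested.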

How the results depend on the processing

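The number of members at an unadjusted p under 0.05 depended on scaling and slide. Against alcohol in all, 12 members became 5 under quantile normalization, 5 with no scaling, 0 with slide as a fixed block, 4 with slide as a random block and 7 with the mean of a gene's probes. Of all probes, 5.53% became 6.12%, 5.05%, 2.1%, 1.63% and 5.65% in these settings. Early high against water went from 10 to 5, 3, 0 (fixed block) and 4 (mean of probes), and low against water from 3 to 1, 0 and 0 (fixed block). Of all probes, 4.7% became 4.8%, 3.3%, 6.94% and 4.34% for early high. For low, 9.08% became 9.58%, 7.92% and 2.99%. High against low went from 16 to 27 with no scaling and 2 with the fixed block, late against early high from 9 to 25 and 2, and late high against water from 30 to 3 with the fixed block. Of all probes, 14.7% became 15.1% and 13.9% for high against low, and 12.4% became 16.5% and 4.79% for late against early high. For late high against water 15.9% became 7.77%. The fixed block leaves few arrays to compare within a slide. Medians moved to -0.0018 (all alcohol), -0.021 (early high) and -0.0019 (late high) under quantile normalization, to 0.13 (high against low), 0.18 (late against early high), 0.19 (late high) and -0.038 (low) with no scaling, to -0.00072 (all alcohol and low), -0.037 (early high) and 0.029 (late high) with the fixed block, and to 0.029 (late high) with the mean of probes. In all, 9 single values changed sign. With the mean of probes these were Rps12 at -0.032 (all alcohol), -0.0055 (early high) and -0.20 (late high), Rpl35a at -0.17 (late high) and -0.24 (late against early high), Rpl29 at 0.0064 and Rpsa at 0.068 (late high) and Rpl22l1 at -0.085 (high against low), and with no scaling Rpl41 at 0.0040 (high against low). The cause was not tested.

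Replicate numbers did not pair the arrays, since the correlation of same-numbered arrays' deviations was over 0.1 in 3 of 18 pairs and 5 of 12 arrays correlated best with their own number. These 3 were the same-numbered pairs that shared a slide. They were water 1 with low 1 (0.183), low 2 with early high 2 (0.175) and early high 3 with late high 3 (0.101). The highest value across slides was 0.092, for low 2 with late high 2. The part of slide in the results was not tested by this. With replicate number as a block, 6 members were past the threshold for all alcohol, beside 5.2% of all probes. The block moved no other count by over 1.5 times. Every array left out in turn gave 4 (water 3 out) to 17 members for all alcohol, 0 (water 3 out) to 7 (low 1 out) for low, 5 (water 2 out) to 14 for early high, 18 (late high 2 out) to 32 for late high, 9 (low 2 out) to 17 for high against low and 6 to 15 (late high 3 out) for late against early high. Of all probes, 3.67% (water 3 out) and 9.02% (low 1 out) were called for all alcohol. For low these fits called 6.56% and 21.2%. For early high the share was 3.97% and 4.31% (water 1 out) at the lowest and highest count. For late high it was 11.3% and 17.8% (late high 3 out). For high against low it was 9.5% and 15.8% (late high 3 out), and for late against early high 7.29% (early high 1 out) and 15%. Further counts that moved were 7 without water 2 and 7 without late high 1 for all alcohol, 19 without water 3 for late high, 6 without water 3 and 6 without early high 2 for early high, and 1 without water 2 and 1 without low 3 for low. In the same order, these fits called 3.63% and 5.12%, 11.4%, 3.63% and 3.14%, and 6.55% and 6.46% of all probes. Over 63 gene and comparison pairs, 638 of 756 fits with 1 array out kept direction and threshold, and 118 kept direction alone. Over the other settings 465 of 630 kept both, 156 kept direction alone and 9 changed sign, and with slide as a fixed block 57 of 63 kept direction alone. The methods' t-test gave 16 members for all alcohol at an unadjusted p under 0.05, 13 higher and 3 lower, beside 3.36% and 1.85% of all probes. An adjusted p of 0.05 in limma was passed by Rpl22l1 (0.0302) and Rpl23 (0.0363) for late high against water without late high 3, and by Rpl6 (0.0385) and Rpl29 (0.0488) for high against low without low 1, and by no other named member under these settings.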
